A study of Mus musculus with 5 samples.

Results

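The Bcl2 family decides whether a T cell survives, and chromatin accessibility (ChrAcc) around 8 of its genes was compared between naive CD8+ T cells with and without the transcription factors Tcf1 and Lef1. The genes were Bcl2, Bcl2l1, Mcl1, Bax, Bak1, Bcl2l11, Bbc3 and Pmaip1, and the regions described are all deposited DNase-seq peaks whose summit lay in the gene body or within 50 kb of it in the mm9 annotation. That rule took 78 of 31116 peaks in the WT list and 69 of 25525 peaks in the dKO list. WT cells came from hCD2-Cre+ Rosa26GFP mice with intact Tcf7+/+ Lef1+/+ alleles and dKO cells from hCD2-Cre+ Rosa26GFP mice with floxed Tcf7 fl/fl Lef1 fl/fl alleles, all adults on the C57BL/6 background. Both groups thus carry the Cre transgene and the GFP reporter, and hCD2-Cre acts mainly in mature peripheral T cells. Splenic cells were sorted as GFP+ TCRbeta+ CD62Lhi CD44lo-med CD8+, from 3 WT and 2 dKO replicates that the authors pooled by genotype before calling peaks. With 1 list per genotype there is no spread between replicates, no test between genotypes was possible, and every comparison describes these pools.

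DNase-seq reads short fragments that DNase I frees from open chromatin. The WT pool held 83923734 fragments and the dKO pool 62242963, so the WT list had 1.35 times the depth. A peak counted as a ChrAcc site at a fold enrichment of at least 4 over local background with p under 1e-05 and q under 0.05. Fold enrichment depends on depth, so it was compared as a percentile within its own list, where 100 is the strongest site. The lists held 28472 WT and 24363 dKO sites, so a percentile can also shift with the length of its list. Sites of the 2 lists with at least 1 bp in common were called shared, and overlapping sites were merged into union sites. Among T cell marker genes, 5 of 6 had a site within 1 kb of a transcription start site (TSS) in WT and 4 of 6 in dKO cells, and Cd4 had none in either list. Promoter sites were found at 0 of 5 B cell and 0 of 2 NK cell markers in both lists. Of 4 myeloid markers, Itgam had a WT promoter site at percentile 34.8 and the dKO list had none, and its part in the results was not tested. Whether a peak overlaps the deleted exons was not examined, so the deletion was not read from the peaks. The same window held 10 WT and 11 dKO sites at Tcf7, with 1 and 2 unshared. At Lef1 it held 15 WT and 11 dKO sites, with 7 and 3 unshared. Over the whole lists, 27.6% of WT and 14.4% of dKO sites were unshared.

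Cells die by the mitochondrial pathway when the effectors Bax and Bak1 open pores in the outer mitochondrial membrane. The anti-apoptotic proteins Bcl2, Bcl-xL (from Bcl2l1) and Mcl1 hold the effectors and their activators in check. The BH3-only proteins Bim (from Bcl2l11), Puma (from Bbc3) and Noxa (from Pmaip1) relay stress or loss of survival signals by binding the anti-apoptotic members, and Bim and Puma can also engage the effectors. Naive T cells are known to depend on interleukin-7 and on contact with self peptide-MHC for survival, with Bcl2 and Bim as a main opposing pair.

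The sequences of 7 sites are shown because the results below turn on them. Each is reference sequence, the same for both genotypes, from the plus strand of the mm9 assembly (NCBIM37), 5′ to 3′, from 100 bp before to 100 bp after the summit, and capitals mark matches on either strand to any motif searched. They are the strongest risen site of each anti-apoptotic gene, the strongest WT-only site at Bax, the strongest dKO-only site at Bcl2l11, the site with a Tcf/Lef match and the most lowered site, both at Bbc3.
Bcl2 intron 1, higher rank in dKO, chr1:108497548-108497748: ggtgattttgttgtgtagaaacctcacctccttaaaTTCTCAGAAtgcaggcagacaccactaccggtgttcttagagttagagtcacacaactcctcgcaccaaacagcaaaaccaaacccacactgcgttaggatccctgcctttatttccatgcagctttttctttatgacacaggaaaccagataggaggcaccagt
Bcl2l1 intron 2, higher rank in dKO, chr2:152651556-152651756: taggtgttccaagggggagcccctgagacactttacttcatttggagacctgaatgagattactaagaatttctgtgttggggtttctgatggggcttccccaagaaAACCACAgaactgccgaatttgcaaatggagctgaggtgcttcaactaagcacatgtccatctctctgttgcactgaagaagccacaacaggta
Mcl1 downstream, higher rank in dKO, chr3:95478194-95478394: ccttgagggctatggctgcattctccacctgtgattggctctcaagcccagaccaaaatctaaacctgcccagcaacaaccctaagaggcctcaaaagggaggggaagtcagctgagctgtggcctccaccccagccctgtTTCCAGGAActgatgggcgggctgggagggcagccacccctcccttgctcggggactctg
Bax upstream, WT list only, chr7:52732500-52732700: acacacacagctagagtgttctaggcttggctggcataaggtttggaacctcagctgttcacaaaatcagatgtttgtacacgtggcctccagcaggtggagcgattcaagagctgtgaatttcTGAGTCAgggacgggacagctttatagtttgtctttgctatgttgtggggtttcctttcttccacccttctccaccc
Bcl2l11 upstream, dKO list only, chr2:127948241-127948441: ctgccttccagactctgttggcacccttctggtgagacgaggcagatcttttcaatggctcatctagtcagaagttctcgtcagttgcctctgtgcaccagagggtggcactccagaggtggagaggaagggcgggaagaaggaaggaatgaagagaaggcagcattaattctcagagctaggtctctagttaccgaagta
Bbc3 upstream, ATCAAAG match, chr7:16871543-16871743: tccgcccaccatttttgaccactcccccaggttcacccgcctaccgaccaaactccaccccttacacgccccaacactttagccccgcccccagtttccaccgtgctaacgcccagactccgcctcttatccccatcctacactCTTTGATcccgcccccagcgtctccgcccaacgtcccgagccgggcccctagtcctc
Bbc3 downstream, lower rank in dKO, chr7:16949832-16950032: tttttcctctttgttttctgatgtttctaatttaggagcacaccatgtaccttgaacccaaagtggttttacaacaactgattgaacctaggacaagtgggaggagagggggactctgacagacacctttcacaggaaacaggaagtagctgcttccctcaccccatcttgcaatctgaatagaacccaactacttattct
The Bcl2 and Mcl1 spans hold a Stat match, the Bcl2l1 span a Runx match, the Bax span an AP-1 match and the upstream Bbc3 span the Tcf/Lef match. The Bcl2l11 span and the downstream Bbc3 span hold no match to any motif searched.

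The 8 genes had 72 ChrAcc sites in WT and 65 in dKO cells, since 6 WT and 4 dKO peaks fell under the fold enrichment limit, and these merged into 78 union sites. Nearest the edge of the windows lay a shared Pmaip1 site 48.0 kb upstream, and the nearest site outside lay 50.3 kb from Bbc3 in dKO at percentile 3.99. Of the 78 union sites, 57 (73.1%) were held by both lists, 14 by WT alone and 7 by dKO alone. The 14 WT sites without a dKO site were 19.4% of the WT sites (95% Wilson interval 12 to 30.0%), beside 27.6% of all WT sites. The 7 dKO sites without a WT site were 10.8% of the dKO sites (5.32 to 20.6%), beside 14.4% of all dKO sites. Both shares lay below their backgrounds under these criteria, and both intervals include them. The intervals of shares, here and below, treat sites as independent draws and are not a test. The sites lie in the windows of only 8 genes, some of them close together. With only the 20000 peaks of highest -log10 p taken from each list, the order turned. The WT list then had 46 sites with 7 unshared (15.2%, beside 19.7% of all WT sites), and the dKO list 53 sites with 13 unshared (24.5%, beside 18.9% of all dKO sites). At a fold enrichment of at least 8, both shares passed above their backgrounds, with 10 of 34 WT sites unshared (29.4%, beside 25.9%) and 9 of 34 dKO sites (26.5%, beside 14.6%). The side of the background on which the 8 genes lay thus depended on the criteria. Of the 8 genes, 7 had at least 1 WT-only site, against 61.0% of all protein-coding genes with a site in the same kind of window. At least 1 dKO-only site was found at 4 of the 8, against 33.1% of those genes. A window with more sites is more likely to hold an unshared one, so these counts are not like for like. The 8 genes held 4 to 15 WT and 5 to 13 dKO sites each, and the median protein-coding gene 4 and 3. The shares per site above do not have this limit.

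Sites present in a single list were mostly weak, as in the series as a whole. The WT-only sites ran from percentile 3.80 to 90.6 with a median of 25, and 11 of the 14 (78.6%) lay below percentile 50, beside 80.9% of all unshared WT sites. The dKO-only sites ran from 3.69 to 56.7 with a median of 34.5, and 5 of the 7 (71.4%) lay below percentile 50, beside 85.9%. At 1 of the WT-only and 2 of the dKO-only sites, all downstream of Mcl1, the other list had a deposited peak under the fold enrichment limit. Above percentile 50, unshared WT sites stood at Bcl2l1, Bax and Bak1 (3 of 33 sites, 9.09%, beside 10.5% of all WT sites of that rank) and unshared dKO sites at Bcl2l11 and Pmaip1 (2 of 30, 6.67%, beside 4.08%). Among the 57 shared sites, the dKO percentile was at least 20 points higher at 7 (12.3%, 6.08 to 23.2%), beside 6.75% of all shared union sites. It was at least 20 points lower at 7 (12.3%, 6.08 to 23.2%), beside 13.7% of all. The other 43 shared sites moved by less than 20 points, and the median shift was -2.28 points, against -2.56 over all 20533 shared union sites.

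**Figure D1:**
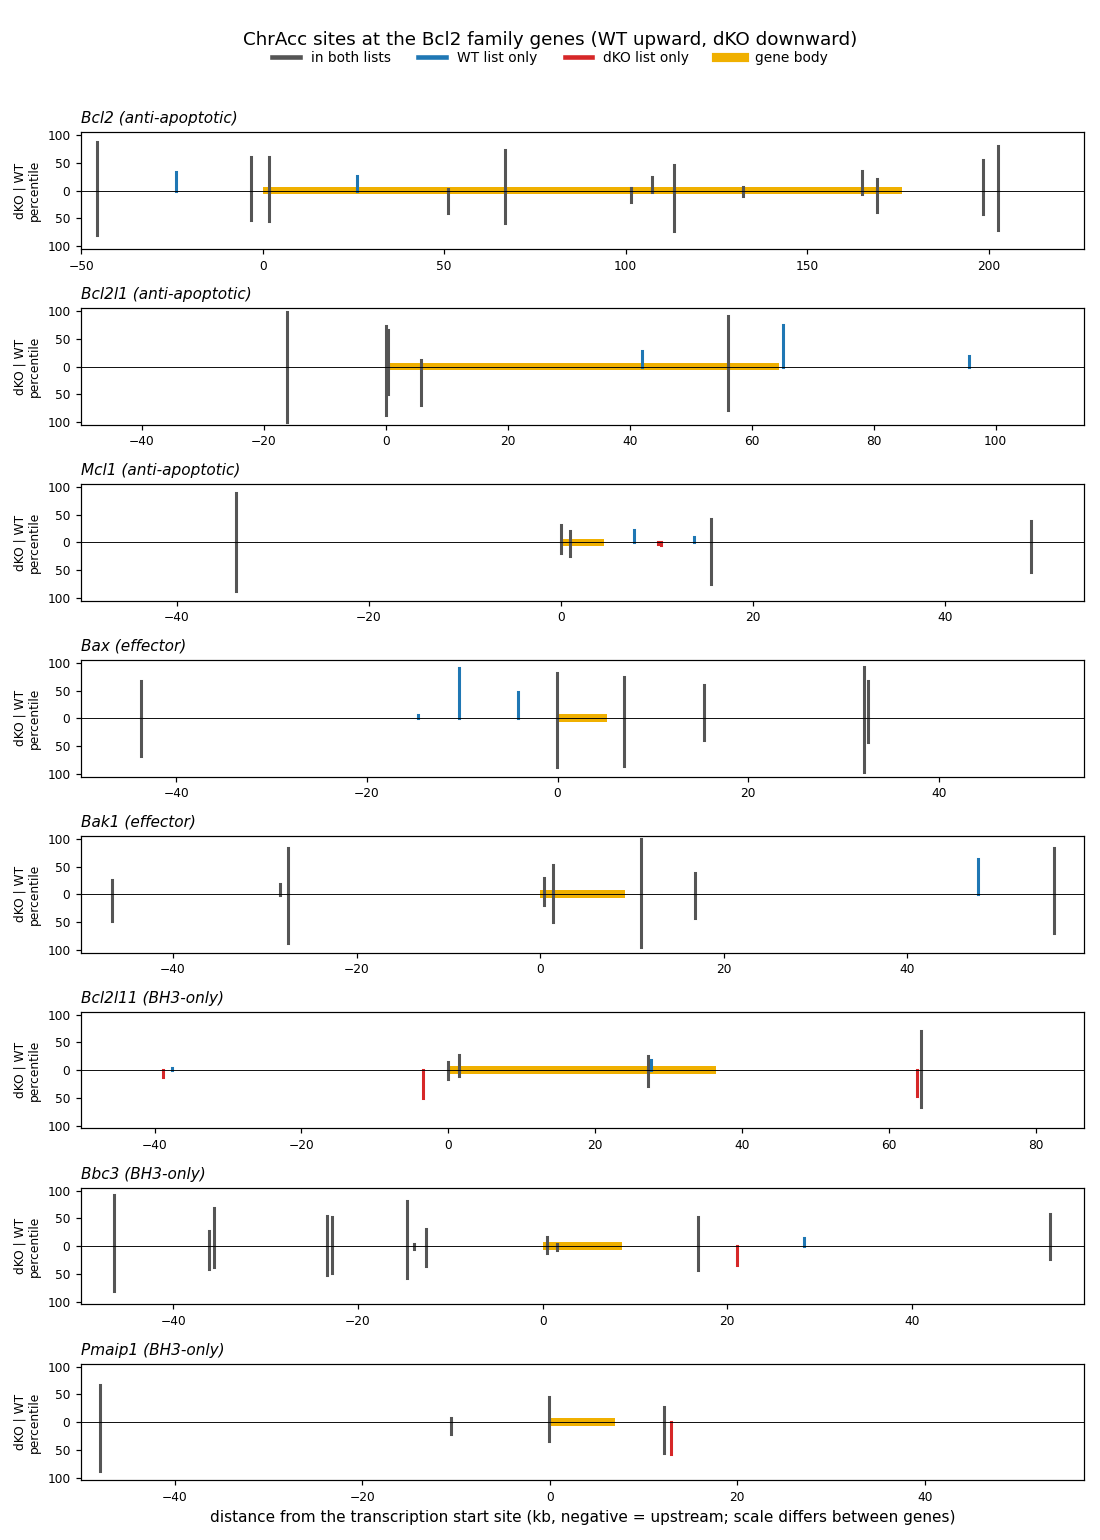
ChrAcc sites along each gene, by distance from the TSS in kb, with WT percentile of fold enrichment drawn upward and dKO percentile downward. Grey bars are shared sites, blue bars WT-only, red bars dKO-only, and the yellow band is the gene body. Upstream of Bax lie 3 WT-only sites, and dKO-only sites lie on both sides of Bcl2l11.

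**Figure D2:**
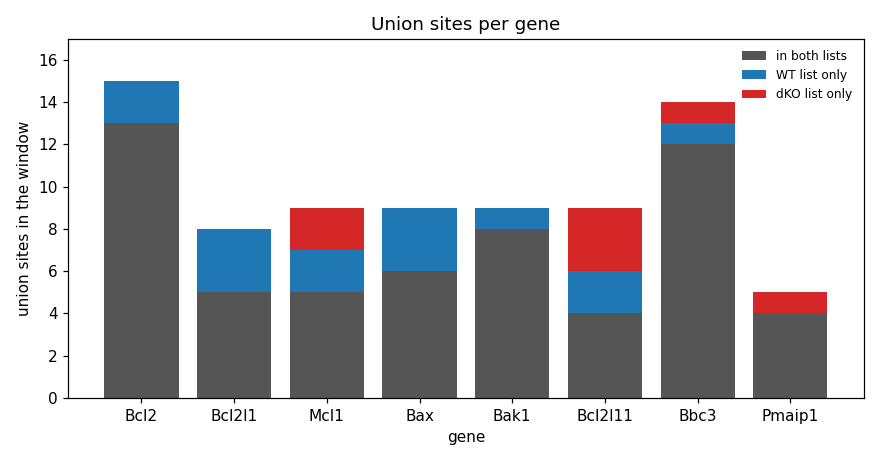
Union sites in the window of each gene, stacked by whether both lists or 1 list held them. Bcl2 had the most sites (15) and Pmaip1 the fewest (5); Bcl2, Bcl2l1, Bax and Bak1 had WT-only but no dKO-only sites.

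The anti-apoptotic genes held 30 WT and 26 dKO sites. Unshared were 7 WT sites (23.3%, 11.8 to 40.9%) and 2 dKO sites (7.69%, 2.14 to 24.1%), and both intervals include the shares over all sites. Bcl2, on the minus strand at chr1:108434755-108610851, is the longest of the 8 genes, and its window held 15 WT and 13 dKO sites. No ChrAcc site lay within 1 kb of a Bcl2 TSS in either list. The WT list had a deposited peak 157 bp inside the gene (38 fragments at its summit), but its fold enrichment of 3.59 was under the limit, and no deposited dKO peak overlapped it. The nearest shared sites were 3.16 kb upstream (percentile 60.2 in WT and 53.7 in dKO) and 1.76 kb downstream of the TSS in exon 1 (59.9 and 54.1). The strongest Bcl2 window site in both lists, 45.5 kb upstream, was the promoter of the neighbour Kdsr at percentile 86.8 in WT and 80.2 in dKO.

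Intron 1 of Bcl2 held sites that moved in both directions. The site 50.9 kb from the TSS (chr1:108559753-108559973) stood at percentile 2.63 in WT and 39.8 in dKO. The site at 113 kb (chr1:108497325-108497810) stood at 45.7 in WT and 72.8 in dKO. Both were thus among the weaker or middle WT sites and ranked higher in the pool without Tcf1 and Lef1. The site at 107 kb (chr1:108503554-108503863) went the other way, from 23.8 in WT to 2.11 in dKO. The site at 165 kb (chr1:108445690-108445930) likewise stood at 35.6 in WT and 6.86 in dKO. Since the higher and lower sites lie within the same intron, Bcl2 as a whole had no common direction, and its median shift was -6.50 points. The 2 WT-only sites of Bcl2 were weak, at percentiles 34.3 (24.0 kb upstream, in Kdsr) and 27.0 (intron 1, 25.9 kb).

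Bcl2l1, which encodes Bcl-xL (chr2:152593052-152657464, minus strand), held 8 WT and 5 dKO sites. It had 2 promoter sites, of which the stronger, 41 bp upstream of the TSS, stood at percentile 73.4 in WT and 87.0 in dKO. The other, 340 bp into the gene, went the other way, from 65.4 to 49.6. The widest shift of any of the 57 shared sites was in its intron 2, 5.81 kb from the TSS (chr2:152651556-152651776), from percentile 12.2 in WT to 68.5 in dKO. The summit pileup there was 32 fragments in WT and 49 in dKO although the dKO pool was shallower. All 5 dKO sites were shared with WT, while 3 WT sites were not. The strongest of those 3 lay 65.0 kb from the TSS, just past the 3′ end of the gene (chr2:152592366-152592483), at percentile 75.7. In the same 10% range of WT fold enrichment, 90.2% of all WT sites had a dKO counterpart. The weaker WT-only sites were in intron 2 (42.0 kb, percentile 27.1) and at the promoter of Id1 (95.6 kb, percentile 19.0), a gene for an inhibitor of basic helix-loop-helix factors. The strongest site of the window in both lists, 16.2 kb upstream, was the promoter of Tpx2, a spindle assembly gene, at percentiles 98.8 and 99.6.

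Mcl1, a short-lived protein that many immune cells need to survive, held 7 WT and 8 dKO sites (chr3:95462643-95467099). Its promoter site at the TSS was weaker than that of Bcl2l1, at percentile 31.6 in WT and 19.1 in dKO. A cluster of sites lay downstream of the gene. The cluster's strongest site, 15.7 kb from the TSS (chr3:95478171-95478376), stood at percentile 42.8 in WT and 74.2 in dKO. Of the others, those at 7.59 kb (percentile 22.9) and 13.9 kb (8.94) met the criteria in WT alone and those at 10.1 kb (3.69) and 10.4 kb (4.13) in dKO alone. For all of these but the 7.59 kb site, the other list held a peak below the limit, with a fold enrichment of 3.45 in dKO at 13.9 kb and of 3.12 and 3.53 in WT at 10.1 and 10.4 kb, so these differences sit at the threshold. The strongest site of the window in both lists, 33.8 kb upstream, was the promoter of Ensa at percentiles 89.9 and 87.9.

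The effector genes held 18 WT and 14 dKO sites. Of these, 4 WT sites (22.2%, 9.0 to 45.2%) and 0 dKO sites (0 to 21.5%) were unshared, and both intervals include the shares over all sites (27.6% and 14.4%). Bax (chr7:52717065-52722268, minus strand) had a strong promoter site 24 bp upstream of its TSS, at percentile 81.3 in WT and 87.8 in dKO. Upstream of it, 3 sites were found in WT alone. The strongest of them, 10.3 kb upstream inside the neighbouring gene Dhdh (chr7:52732543-52732647), had a summit pileup of 80 fragments and stood at percentile 90.6. By fold enrichment this was the strongest of the 21 sites held by 1 list. In the same 10% range of fold enrichment, 98.3% of all WT sites had a dKO counterpart. Ranked by pileup it stood at percentile 70.6, below the dKO-only sites 3.43 kb upstream of Bcl2l11 (74.2) and 12.9 kb from Pmaip1 (73.2). The other WT-only Bax sites lay 4.17 kb upstream (percentile 47.3) and 14.7 kb upstream (5.91). At none of the 3 did the dKO list hold a deposited peak of any strength.

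Downstream of Bax lie Ftl1, Gys1 and Ruvbl2, and the sites there were promoters of those genes. The Ftl1 promoter site, 7.01 kb from the Bax TSS, stood at percentile 74.6 in WT and 85.2 in dKO. The strongest site of the window, at the shared Gys1 and Ruvbl2 promoters 32.2 kb away, stood at 93.0 and 96.3. A weaker site beside it at 32.6 kb (chr7:52689606-52689813) went from 66.6 to 42.2. A site at an inner Gys1 TSS at 15.4 kb (chr7:52706780-52706917) went from 60.4 to 38.2. Around a Bax promoter of high rank in both lists, neighbouring sites thus ranked higher or lower in dKO.

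Bak1 (chr17:27156755-27165954, minus strand), the other effector, overlaps the gene Ggnbp1 in the annotation and held 9 WT and 8 dKO sites. Its promoter sites ranked lower than that of Bax. The stronger, in intron 1 at 1.40 kb near an alternative TSS, stood at percentile 53 in WT and 50.6 in dKO. The strongest site of the window was a Ggnbp1 promoter 11 kb from the Bak1 TSS, at 99.8 in WT and 94.7 in dKO. The site 46.6 kb upstream, within Itpr3 (chr17:27212377-27212602), went from 26.2 in WT to 48.3 in dKO, the lone Bak1 site to shift by 20 points. The lone WT-only site lay 47.7 kb downstream in Ggnbp1 (chr17:27118112-27118394) at percentile 63.0, a range in which 85.8% of WT sites had a dKO counterpart.

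The BH3-only genes held 24 WT and 25 dKO sites. Of these, 3 WT sites (12.5%, 4.34 to 31.0%) and 5 dKO sites (20%, 8.86 to 39.1%) were unshared, and both intervals include the shares over all sites (27.6% and 14.4%). Bcl2l11, encoding Bim (chr2:127951774-127988283), held 7 sites in each list. Of 9 union sites, 4 were shared, 3 belonged to the dKO list only and 2 to the WT list only. The promoter of Bcl2l11 was open at a low rank in both. Its site 42 bp upstream of the TSS stood at percentile 13.9 in WT and 15.9 in dKO, and the promoter site at 1.44 kb at 27.4 and 9.60. The strongest dKO-only site lay 3.43 kb upstream within the annotated body of Acoxl (chr2:127948293-127948395), with 62 fragments at its summit and percentile 50.2. In that 10% range of dKO fold enrichment, 91.4% of all dKO sites had a WT counterpart. A further dKO-only site 63.8 kb downstream at the noncoding gene Gm14009 stood at percentile 47.1, next to a shared site at 64.4 kb that was the strongest of the window (70.3 in WT and 65.6 in dKO). The remaining unshared sites were at percentile 18.8 or below. A deposited WT peak 35.6 kb upstream held the motif ATCAAAG but its fold enrichment of 3.98 fell just under the limit, and no dKO peak overlapped it.

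Bbc3, encoding Puma (chr7:16894965-16903554), had the densest window, with 13 sites in each list and 12 of 14 union sites shared. Its own promoter sites were weak, and the stronger, in intron 1 at 499 bp from the TSS, stood at percentile 17.4 in WT and 12.8 in dKO. All of its named shifts were downward. The site 35.6 kb upstream at the Prr24 promoter (chr7:16859233-16859409) went from 68.7 in WT to 37.0 in dKO. The site 14.7 kb upstream between genes (chr7:16880221-16880458) went from 81.7 to 58.1. The site 55.0 kb downstream within Sae1 (chr7:16949608-16950018) went from 58.3 to 24.0, the widest fall of the 57 shared sites. These 3 lie on both sides of the gene, and the other shared sites between them moved by less than 20 points. The strongest site in both lists, 46.4 kb upstream, stood at 92.2 in WT and 81.0 in dKO. The dKO-only site at 21.0 kb stood at percentile 34.5 and the WT-only site at 28.3 kb at 15.5, both within Sae1, which encodes a subunit of the SUMO-activating enzyme.

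Pmaip1, encoding Noxa (chr18:66618258-66625204), held 4 sites in WT, the fewest of the 8 genes, and 5 in dKO. Its promoter site, 101 bp upstream of the TSS, stood at percentile 45.1 in WT and 35.0 in dKO. Away from the promoter, every shared Pmaip1 site ranked higher in dKO. The site 48.0 kb upstream (chr18:66570184-66570418) was the strongest in both lists and went from 66.6 in WT to 89.0 in dKO. The site 12.2 kb downstream of the TSS (chr18:66630340-66630558) went from 27.6 to 55.8. Next to it, at 12.9 kb, the dKO list held a site with 61 fragments at percentile 56.7 where the WT list held no deposited peak (chr18:66631118-66631272). The site 10.6 kb upstream was weak in both, at 8.0 and 22.0. The median shift over the 4 shared Pmaip1 sites was 18.2 points, the highest of the 8 genes.

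**Figure D3:**
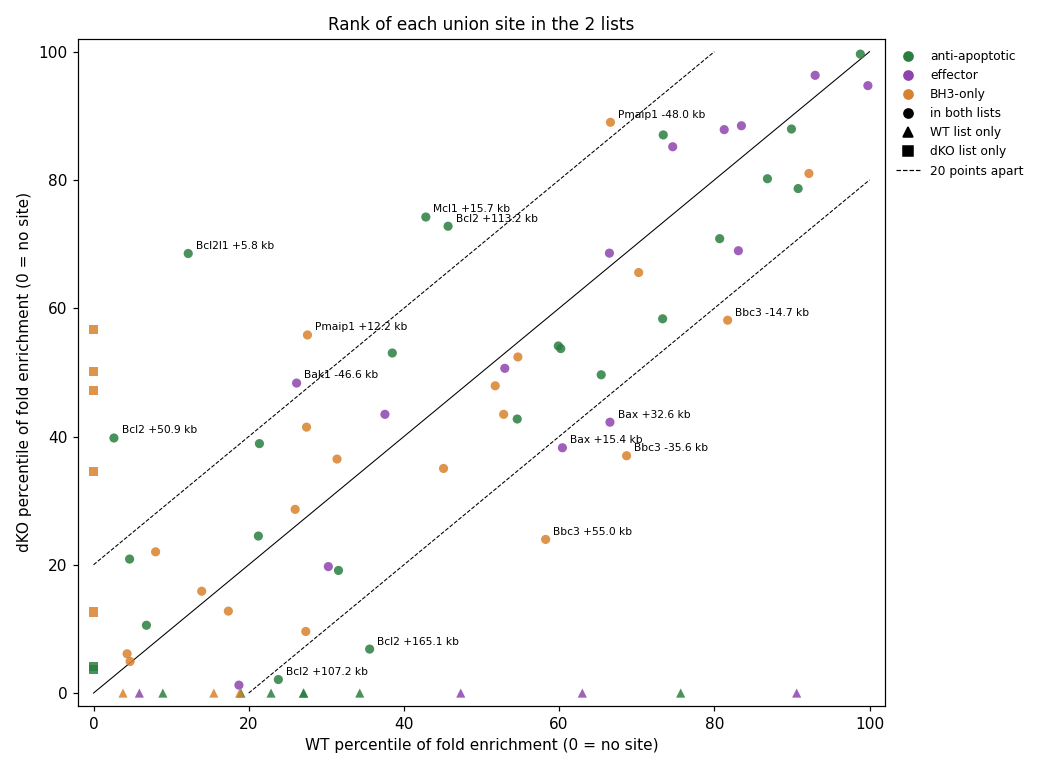
WT percentile (x axis) against dKO percentile (y axis) of fold enrichment for each union site, coloured by role, with the value 0 where a list had no site. Shared sites outside the dashed lines shifted by at least 20 points and are named by gene and distance from the TSS; the Bcl2l1 intron 2 site lies farthest above the diagonal (12.2 and 68.5) and the Bbc3 site at 55.0 kb farthest below it among shared sites (58.3 and 24.0).

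No ChrAcc site at a promoter of the 8 genes themselves was found in 1 list alone. Bcl2 had no such site, and its WT peak 157 bp inside the gene, under the limit at a fold enrichment of 3.59, overlapped no deposited dKO peak. All 12 sites within 1 kb of a TSS of the 8 genes were shared (0% unshared, 0 to 24.2%), and none shifted by 20 points. Of all union sites within 1 kb of the TSS of a protein-coding gene, 19.3% were unshared and 15.7% of the shared ones shifted, and the interval includes both. By rank in WT, the strongest promoter sites ran from Bax (81.3) and Bcl2l1 (73.4) through Bak1 (53), Pmaip1 (45.1), Mcl1 (31.6) and Bcl2l11 (27.4) to Bbc3 (17.4). With the strongest promoter site of each gene in the dKO list, the order was the same, from Bax (87.8) and Bcl2l1 (87.0) through Bak1 (50.6), Pmaip1 (35.0), Mcl1 (24.5) and Bcl2l11 (15.9) to Bbc3 (12.8). The effector Bax and the anti-apoptotic Bcl2l1 thus had the promoters of highest rank in both pools. Scaled to depth, the summit pileup at the Bcl2l1 promoter was 1.45 per 1000000 fragments in WT (95% Poisson interval 1.21 to 1.74) and 1.48 in dKO (1.19 to 1.81). At the Bax promoter it was 1.04 (0.830 to 1.28) and 0.932 (0.708 to 1.2). At the Mcl1 promoter it was 0.536 (0.391 to 0.717) and 0.386 (0.247 to 0.574). At each of the 7 genes with a promoter site the intervals of the genotypes overlapped, which is not a test of their difference. Over all 12 promoter sites, the interval of the depth-scaled dKO to WT pileup ratio included 1 at 11. The exception was the second Bcl2l1 promoter site, 340 bp into the gene, with a ratio of 0.699 (0.498 to 0.971). Relative to the median shared site of the series, its ratio was 0.766 (0.547 to 1.06). The intervals cover counting error only, not the variation between mice, and a summit is the highest point of its peak.

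**Figure D4:**
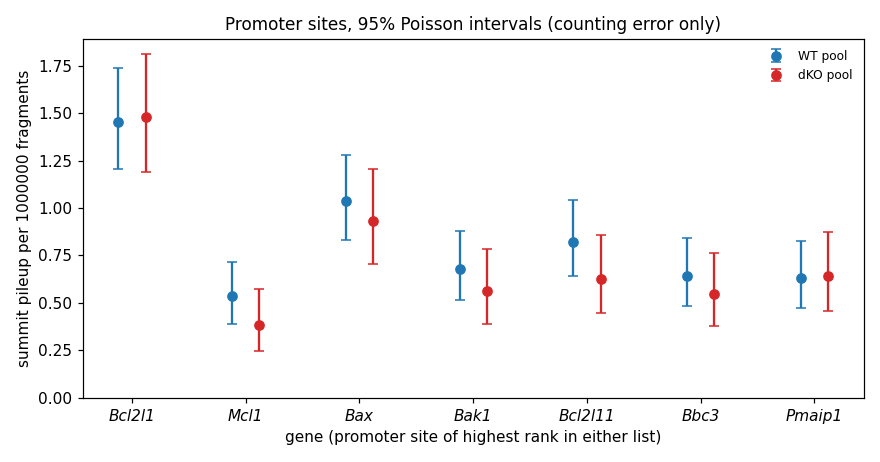
Summit pileup per 1000000 fragments (y axis) in the WT pool (blue) and dKO pool (red) at 1 promoter site per gene, the site of highest percentile in either list, with 95% Poisson intervals for counting error only. The intervals of the genotypes overlap at all 7 genes; Bcl2 had no promoter site.

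Of the 14 shifted sites, 3 lay at promoters of neighbouring genes and 11 (78.6%) at no promoter, beside 65.0% of all shifted sites. Relative to the median shared site of the series, the depth-scaled dKO to WT pileup ratio at the Bcl2l1 intron 2 site was 2.26 (95% interval 1.42 to 3.65). At the Bcl2 site 50.9 kb into the gene it was 2.03 (1.17 to 3.60), and at the Pmaip1 site 12.2 kb from the TSS 2.02 (1.34 to 3.05). The lowest ratios were at Bbc3, with 0.569 (0.374 to 0.849) at 35.6 kb upstream and 0.581 (0.376 to 0.879) at 55.0 kb downstream. For 6 of the 7 risen and 4 of the 7 fallen sites the interval lay wholly on the side of the shift. The ratio at the risen Bak1 site (1.44, 0.869 to 2.37) had an interval that included 1. So did the ratios at the Bcl2 sites at 107 kb (0.645, 0.342 to 1.17) and 165 kb (0.675, 0.383 to 1.15) and at the Bax site at 15.4 kb (0.870, 0.535 to 1.39), so these were not separated from the median site at this depth. Scaled to depth alone, without the median site, the ratio at the risen Mcl1 site was 1.30 (0.937 to 1.80), an interval that also included 1. The sites were chosen by their shift in rank, which rests on the same fragments, so the ratios describe the size of the shifts and are no independent support for them.

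**Figure D5:**
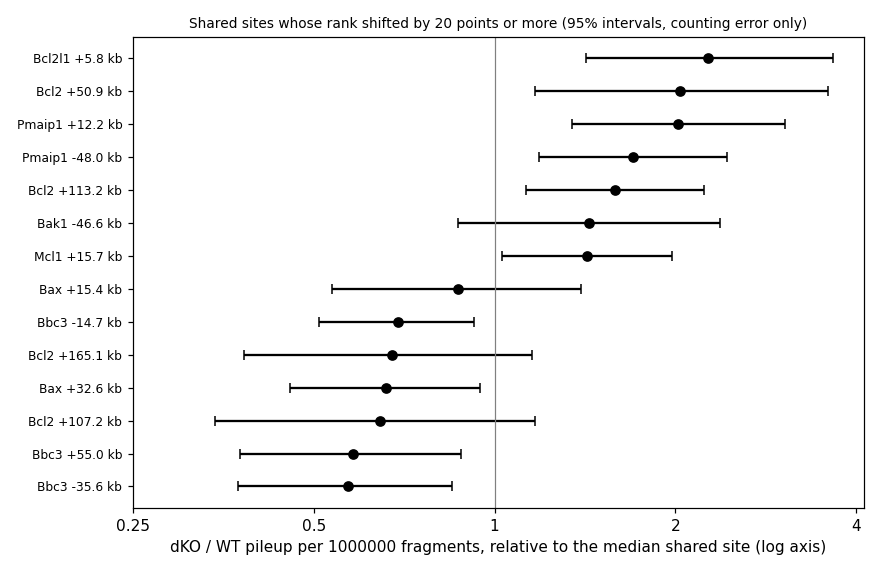
Ratio of dKO to WT summit pileup per 1000000 fragments, relative to the median shared union site (log axis), at the 14 shared sites that shifted by at least 20 points, with 95% intervals for counting error only. The Bcl2l1 intron 2 site has the highest ratio (2.26) and the Bbc3 site 35.6 kb upstream the lowest (0.569); 4 intervals include 1.

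Motifs were searched on both strands within 100 bp of each summit. The Tcf/Lef motif ATCAAAG was found at 1 of 72 WT sites and 0 of 65 dKO sites, beside 3.81% of all WT and 2.42% of all dKO sites. The WT site with the match is the Bbc3 site 23.3 kb upstream at the Ccdc9 promoter (chr7:16871448-16871909), which was shared and stood at percentile 54.7 in WT and 52.4 in dKO. The dKO summit of that union site lies elsewhere in it, out of reach of the match. Stat matches (TTCNNNGAA) were found at 8 WT sites (11.1%) and 9 dKO sites (13.8%), beside 5.83% and 5.66% of all sites. Bcl2 intron 1 held several of them, among them the risen site at 113 kb and the fallen site at 107 kb in both lists. The risen site at 50.9 kb had a match around its dKO summit but none around its WT summit. Runx matches (TGTGGTT) were found at 6 WT and 6 dKO sites, beside 9.67% and 10.6% of all, and 1 was at the Bcl2l1 intron 2 site. AP-1 matches (TGANTCA) were found at 6 WT and 4 dKO sites, beside 6.09% and 6.25% of all, and 1 of the WT sites was the WT-only site 10.3 kb upstream of Bax. Ets matches (CCGGAAGT) were at 4 WT and 3 dKO sites (3.76% and 4.11% of all) and Foxo matches (GTAAACA) at 1 WT and 2 dKO sites (2.82% and 3.0% of all). The CTCF consensus was found at 4 sites in each list, beside 7.04% and 6.61% of all, and 1 was in the Bbc3 promoter site, while the p53 consensus was found at none, beside 0.0140% and 0.0164% of all. A match describes the letters of the window and is not evidence of binding.

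Other genes of the pathway were read in the same window, each gene counted on its own. A list of 17 further Bcl2 family genes held 66 WT and 60 dKO sites, with 16 WT sites (24.2%) and 10 dKO sites (16.7%) lacking a counterpart, beside 27.6% and 14.4% of all sites. Bmf, a BH3-only gene, had 4 WT and 7 dKO sites, and 3 of the dKO sites were unshared. Bad, a BH3-only gene whose product is regulated by phosphorylation, had 10 WT and 8 dKO sites. The anti-apoptotic gene Bcl2a1b had 2 WT sites, 1 of them at its promoter at percentile 55.8, and no dKO site. Its near-identical neighbour Bcl2a1d had a promoter site at percentile 93.8 in WT and 67.2 in dKO, and reads of such copies are hard to place uniquely. The 16 genes that act downstream or beside the family, from Apaf1 to the caspases and their inhibitors, held 74 WT and 62 dKO sites. Of these, 20 WT sites (27.0%) and 7 dKO sites (11.3%) were unshared, near the same shares of all sites. Promoter sites were present at 13 of the 16 in both lists, among them Apaf1, the scaffold of the apoptosome, at percentile 83.1 in WT and 73.5 in dKO. More WT than dKO sites were found at 11 of the 16 downstream genes (15 with a site) and 10 of the 17 further family genes (15 with a site). The same held for 4 of the 8 genes above, all with a site, and for 48.5% of all protein-coding genes with a site.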

How the data were processed

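DNase-seq of splenic naive CD8+ T cells was analysed from 1 peak list per genotype. Per the submitters' processing notes, FastQC, Bowtie2 2.2.5 and MACS2 2.1.1 were used. Per the file headers, peaks were called on the pooled replicates in paired-end mode, without a control and at p under 1e-05, and the total of 167847468 WT and 124485926 dKO fragments was 2 times the number kept. The headers name 2 alignment files per genotype that differ by a suffix for sorting, so these totals may count the same reads 2 times, which was not tested. Depth was taken from the number kept. The deposited pileup is a signal, the number of fragments over the summit, which the authors did not scale to depth. The authors' fold enrichment, a ratio, divides this pileup by the background that MACS2 estimated around the peak. The deposited -log10 p and -log10 q values are the authors' MACS2 tests of the summit over it.

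Peaks were assigned to genes by summit and ranked by fold enrichment within their list. Distances run to the TSS of transcript 001, or of the longest transcript where none has that name, in the gencode annotation of mm9. Sites were named where they were the strongest promoter site of a gene, the strongest site of a gene in a list, held by 1 list at percentile 50 or above, shifted by 20 points or more, or held ATCAAAG; sites named beyond that rule were chosen after their values were seen. Pileups per 1000000 fragments carry exact Poisson intervals, their ratios exact conditional binomial intervals and shares Wilson intervals, all at 95%. The members and lists were chosen with earlier results of these data known. Overlap and motif steps were tested on simulated data. Alternatives were stricter or no site criteria, lists of equal length, other overlaps, windows, ranks and shift sizes, and a narrower motif window. Computation used Python 3.11.15, numpy 2.4.6, pandas 2.3.3, scipy 1.17.1 and matplotlib 3.10.9.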

Additional observations from a re-analysis of the deposited data

How the results depend on the processing

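No paired analysis was possible because each genotype is 1 pooled list, and for the same reason no replicate could be left out. With a fold enrichment of at least 8, there were 34 WT and 34 dKO sites, 10 of the WT sites (29.4%, beside 25.9% of all) and 9 of the dKO sites (26.5%, beside 14.6% of all) were unshared. Of 24 shared sites, 3 then ranked higher in dKO by 20 points (12.5%, beside 11.5% of all shared sites) and 6 lower (25%, beside 19.8%), against 7 and 7 of 57 with the reported criteria. With only the 20000 peaks of highest -log10 p in each list, there were 46 WT sites, 7 WT sites without a dKO site (15.2%, beside 19.7% of all) and 13 dKO sites without a WT site (24.5%, beside 18.9% of all). With a stricter q limit, 12.5% of the dKO sites were unshared, beside 11.1% of all. In these settings the shares of 1 or both lists passed above their backgrounds, while with the reported criteria both lay below. With 10 kb on either side of the genes, there were 38 WT and 34 dKO sites, 7 and 4 of them unshared (18.4% and 11.8%, beside 27.6% and 14.4% of all). From 50 kb upstream of the TSS to the 3′ end, 8 of 51 WT sites (15.7%) and 2 of 45 dKO sites (4.44%) were unshared, beside 27.6% and 14.4% of all. With a shift of at least 10 points, 14 of 57 sites ranked higher (24.6%, beside 17.1% of all shared sites) and 18 lower in dKO (31.6%, beside 30.3%). The other counts were within 1.5 times the reported ones, but at a fold enrichment of at least 8 the unshared share of the dKO sites went from 10.8% to 26.5%. Ranking by pileup gave 5 higher (8.77%, beside 5.76% of all shared sites) and 9 lower sites (15.8%, beside 14.7%). Ranking by -log10 p gave 6 higher (10.5%, beside 6.27%) and 9 lower sites (15.8%, beside 14.6%). The named shifts were recomputed with ranking by pileup, with ranking by -log10 p and with every deposited peak. A fold enrichment of at least 8 gave values only for the Bbc3 site 14.7 kb upstream and the Pmaip1 site 48.0 kb upstream. The stricter q limit and the lists of equal length were not run for these shifts. Of the 14 named shifts, 10 kept at least 20 points in every setting run for them, and none changed direction. The exceptions were the Bak1 site (14.8 by pileup, 18.2 by -log10 p and 18.2 with every deposited peak), the Bax site at 15.4 kb (-17.0 by pileup and -18.8 by -log10 p), and by pileup the Mcl1 site (14.8) and the Bbc3 site 14.7 kb upstream (-15.8). Of the 5 named sites held by 1 list, 3 fell below percentile 50 at a fold enrichment of at least 8: the Bak1 site at 47.7 kb (63.0 to 31.2), the Bcl2l11 site 3.43 kb upstream (50.2 to 9.01) and the Pmaip1 site at 12.9 kb (56.7 to 20.9). Removing the weaker sites lowers every percentile by construction, so these falls say nothing about the sites themselves. The cause of the other changes was not tested. Pooling, the unequal depth of the pools and the lack of read counts under peaks that were not called limit all comparisons, and a site missing from a list is not shown to be closed.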
